A study of Rattus norvegicus with 7 samples.

Results

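The miR-129 strands are the mature miRNAs of a pair of rat genes, Mir129-1 and Mir129-2. Their levels were measured on Agilent 1-colour miRNA arrays with islet RNA of male Wistar rats. Replicates 2, 4, 10 and 16 were the 4 rats aged 12 months and replicates 9, 11 and 13 the 3 rats aged 3 months, and each rat had its own array. Islets had been released from the pancreas with collagenase, so each sample is a mixture of islet cell types with whatever exocrine tissue came along. No treatment or genetic change separated the groups. The strands were taken by their names on the array, and 3 of the 677 rat miRNAs matched: rno-miR-129, the guide strand, and rno-miR-129-1* and rno-miR-129-2*, the passenger strands of the respective genes. The name rno-miR-129*, without a gene number, matched 0 of the 677 miRNAs. The family was selected on its age differences on these same arrays, which were already known. The age differences given here are therefore descriptions of the 7 rats, and no test is given for them.

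A miRNA gene is transcribed as a hairpin, and Drosha and Dicer cut it to a short duplex. Argonaute usually keeps one strand of the duplex, the guide, and the other strand, the passenger, is degraded. A pair of genes with the same guide can differ in the passenger, and a passenger found in a single gene can show which gene was active. In the older nomenclature used on this array an asterisk marks the passenger strand, and current names give the arm of the hairpin as 5p or 3p. The words guide and passenger follow the array names here. The signals do not follow those roles, as the passengers had higher mean signals than the guide at both ages. Which strand was the more abundant was not determined, since probes differ in binding strength. miR-129 is best known as a miRNA of brain and other neuroendocrine tissue.

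The sequences are shown because they set what the array can tell apart. All 3 array names were matched to RefSeq sequences of the GRCr8 build, rno-miR-129 to miR-129-5p and the passengers to miR-129-1-3p and miR-129-2-3p. The seed, bases 2 to 8, which leads the pairing with target mRNA, is in capitals.
miR-129 (miR-129-5p): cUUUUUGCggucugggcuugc
miR-129-1* (miR-129-1-3p): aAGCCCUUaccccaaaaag
miR-129-2* (miR-129-2-3p): aAGCCCUUaccccaaaaagcau
The guide is 21 bases long and identical in both genes, so its signal sums the output of both. Both passengers share the seed AGCCCUU, which 0 other names among the 693 mature miRNA names of the table carry, and the same holds for the guide seed UUUUUGC. The annotated miR-129-1-3p has 19 bases, and all 19 are the first bases of the 22-base miR-129-2-3p. Of the 419 rat hairpins in the table, 2 contained that 19-base sequence, Mir129-1 and Mir129-2.

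Read over 22 bases from each hairpin, the 3′ arms were identical at 21 positions. The single difference was U20C, with the base of Mir129-1 first and positions counted from the 5′ end of the arm. It is in capitals here.
Mir129-1 arm: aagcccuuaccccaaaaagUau
Mir129-2 arm: aagcccuuaccccaaaaagCau
A probe for one passenger could therefore also bind the other. Probe sequences were not used here, and the share of each passenger signal that came from the other gene was not tested.

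The hairpins themselves differ outside the arms, as the stretches in lower case show. The mature strands are in capitals.
Mir129-1: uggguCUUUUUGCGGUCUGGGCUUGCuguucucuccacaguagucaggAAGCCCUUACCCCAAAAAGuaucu
Mir129-2: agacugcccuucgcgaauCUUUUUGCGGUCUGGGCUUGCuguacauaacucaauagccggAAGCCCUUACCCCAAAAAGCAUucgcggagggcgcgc
In GRCr8, Mir129-1 lies on the plus strand at chr4:58589711-58589782, within the span of the long non-coding RNA gene LOC120102250 and next to Lep, the leptin gene. Whether it falls in an exon of that gene was not determined here. Mir129-2 lies on the minus strand at chr3:100657390-100657486, overlaps no other listed gene and has Ttc17 as its next listed neighbour on one side. The array itself was designed on an older rat build.

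The scanner software called all 3 strands detected on all 7 arrays, where between 246 and 296 of the 677 miRNAs were detected, and no spot was saturated. The total gene signal, which is the background-subtracted sum over the probes of a miRNA, is given in intensity units. Arrays of the older rats were brighter as a whole, so the signal was also put on a log2 scale and quantile normalised. A miRNA was kept if all arrays of either age had it flagged as detected, which held for 272. Before normalisation these differed by a median of 0.79 between the ages (log2, 12 months minus 3 months), and after it by 0.06. Probes bind their targets with different strength, so signals of different strands are not ranked against each other as amounts of RNA. As a check of the tissue, the islet endocrine miRNA miR-375 was detected on all arrays, and its normalised log2 signal was 13.44 ± 0.08 in the older (SD, n = 4) and 13.64 ± 0.24 in the younger rats (SD, n = 3).

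The guide strand showed a small age difference after normalisation. In the older rats rno-miR-129 had a total gene signal of 618, 505, 381 and 699.6 units in replicates 2, 4, 10 and 16. In the younger rats it had 299, 329 and 207 units in replicates 9, 11 and 13. All older rats thus lay above all younger rats in the signal as scanned, with means of 551 ± 139 (SD, n = 4) and 278 ± 63.9 (SD, n = 3) and a ratio of 1.98. Arrays of the older rats were brighter as a whole, and after normalisation the log2 values were 8.89, 8.61, 8.38 and 9.12 at 12 months against 8.74, 8.48 and 8.48 at 3 months. The ages overlapped on this scale. Replicate 10 lay below every younger rat, and replicates 2 and 16 lay above all of them. The log2 difference of 0.18 (limma standard error 0.20) was smaller than the SD of 0.32 among the older rats and larger than the 0.15 among the younger rats.

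Both passenger strands were higher in every older rat than in any younger rat, on either scale. The signal of rno-miR-129-1* was 1149.8, 894, 935 and 1332 units in 12-month-old replicates 2, 4, 10 and 16, and 395, 458 and 204 units in 3-month-old replicates 9, 11 and 13. The means were 1078 ± 203 (SD, n = 4) and 352 ± 132 (SD, n = 3), a ratio of 3.06. Among the younger rats replicate 13 was the lowest, at about the level of its guide signal.

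After normalisation rno-miR-129-1* had log2 values of 9.63, 9.55, 9.93 and 9.84 at 12 months and 9.08, 9.04 and 8.44 at 3 months. The gap between the ages, from 9.08 to 9.55, was wider than the SD of either group (0.17 and 0.36). The log2 difference was 0.88 (limma standard error 0.20), the 15th highest of the 272 miRNAs.

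rno-miR-129-2* gave 1692, 1427, 1395 and 2137 units in the older rats and 589.7, 774 and 350.1 units in the younger rats, in the same order of replicates. The means were 1663 ± 343 (SD, n = 4) and 571 ± 213 (SD, n = 3), a ratio of 2.91. Its normalised log2 values were 10.22, 10.08, 10.29 and 10.55 against 9.71, 9.84 and 9.04. Replicate 13 was again the lowest of all rats, and the groups did not overlap, the nearest values being 9.84 and 10.08. The log2 difference was 0.76 (limma standard error 0.22), the 22nd highest of the 272 miRNAs.

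**Figure D1:**
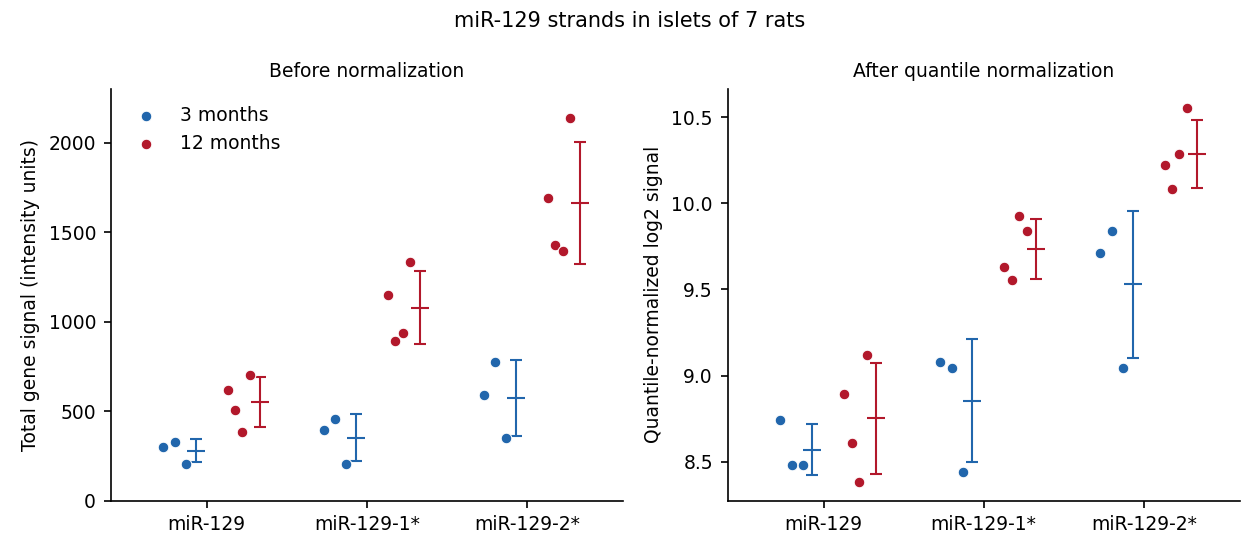
Total gene signal in intensity units (left) and quantile-normalised log2 signal (right) of miR-129, miR-129-1* and miR-129-2*. Each point is a rat, blue for 3 months (n = 3) and red for 12 months (n = 4), and the bars beside the points give mean and SD. After normalisation the ages overlap for miR-129 and do not overlap for either passenger strand.

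Of the 3 strands, 2 thus lay higher in all older rats after normalisation. Over the 272 miRNAs this was so for 21, or 7.72%, and 26, or 9.56%, lay lower in all older rats. The age difference had guided the choice of the family, so nothing is read from that comparison. The background share rests on single rats, with 21.7% without 12-month-old replicate 10 and 15.4% without 3-month-old replicate 11. Leaving out a rat also makes non-overlap easier to reach. The slide held its arrays in 2 rows, and rats of either age were present in both. Within the row with 2 older rats and 1 younger rat the normalised log2 differences were 0.01 for rno-miR-129, 0.51 for rno-miR-129-1* and 0.44 for rno-miR-129-2*. Within the row with 2 rats of each age they were 0.27, 1.14 and 0.98. The passengers were above the guide in age difference in both rows, and all 3 differences were larger in the second row.

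The strands were then compared within each array. The log2 signal of a passenger minus that of the guide on the same array was used. Where signal is proportional to RNA, the brightness of the array cancels in it, and probe binding strength cancels between the ages. Proportionality was not tested, and every older array was brighter than every younger one. The 75th percentile of total gene signal was 67.0 to 73.8 units at 12 months and 37.4 to 55.4 at 3 months. For rno-miR-129-1* minus rno-miR-129 the difference was 0.89, 0.82, 1.30 and 0.93 in 12-month-old replicates 2, 4, 10 and 16, and 0.40, 0.48 and -0.02 in 3-month-old replicates 9, 11 and 13. All older rats lay above all younger rats, with means of 0.99 ± 0.21 (SD, n = 4) and 0.29 ± 0.26 (SD, n = 3). The age difference in passenger minus guide was 0.70 on the log2 scale (limma standard error 0.16).

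For rno-miR-129-2* minus rno-miR-129 the values were 1.45, 1.499 and 1.61 in replicates 2, 4 and 16 and 1.87 in replicate 10, against 0.98, 1.23 and 0.76 in the younger rats. The groups again did not overlap, and the age difference was 0.62 (limma standard error 0.15). Among the younger rats the differences of both passengers rose with the 75th percentile of the array, and among the older rats they did not. The part of array brightness in these differences was not tested. Replicate 10 had the highest value of all rats for both passengers. It was also the older rat with the lowest guide signal. When replicate 10 was left out, which was decided with the values in view, the differences were 0.60 for rno-miR-129-1* and 0.53 for rno-miR-129-2*.

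Quantile normalisation brought the ages to overlap for 1 of the pairs. On normalised values rno-miR-129-2* minus rno-miR-129 was 1.33 in 12-month-old replicate 2 and 1.35 in 3-month-old replicate 11, so that the ages overlapped there. The age difference was then 0.58 (limma standard error 0.22). For rno-miR-129-1* it was 0.70 (limma standard error 0.24) with no overlap. Within the slide rows, before normalisation, the differences were 0.46 and 0.88 for rno-miR-129-1* and 0.50 and 0.74 for rno-miR-129-2*.

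The passengers kept nearly the same distance from each other. The log2 signal of rno-miR-129-2* minus that of rno-miR-129-1* was 0.56, 0.68, 0.58 and 0.68 in 12-month-old replicates 2, 4, 10 and 16 and 0.58, 0.76 and 0.78 in the younger rats. The ages overlapped, with means of 0.62 ± 0.06 (SD, n = 4) and 0.70 ± 0.11 (SD, n = 3). The age difference of -0.08 was within the SD of the younger rats and beyond that of the older rats. Replicates 2 and 10 lay below every younger rat, replicate 10 only narrowly. The array thus showed no gap between the ages in the ratio of the passenger signals. The near-identical sequences given above limit what that ratio can say about the separate genes.

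**Figure D2:**
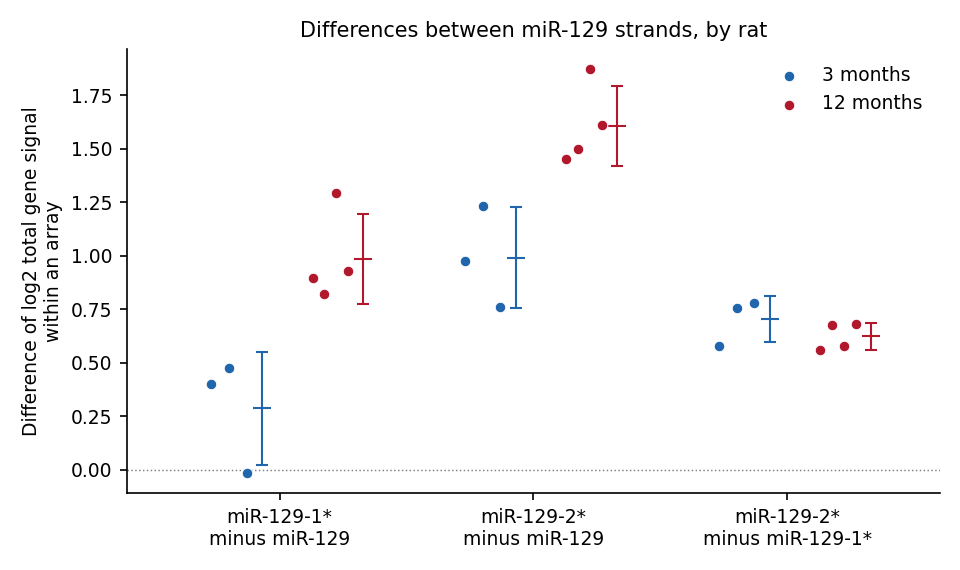
Differences between the log2 total gene signals of the miR-129 strands on the same array, before normalisation, by rat (blue, 3 months, n = 3, and red, 12 months, n = 4), with mean and SD beside the points. Both passenger minus guide differences are higher in every older rat, and the difference between the passengers lies between 0.56 and 0.78 in all 7 rats.

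Each strand was read by 2 probes with 10 spots each. For the guide the brighter probe gave 71.2% to 72.8% of the total gene signal. Its probes taken alone gave age differences of 0.22 and 0.17 after normalisation. For the passengers the brighter probe carried nearly all of the signal, 94.7% to 96.3% for rno-miR-129-1* and 95.9% to 97.1% for rno-miR-129-2*. Taken alone, the brighter probes gave age differences of 0.95 (limma standard error 0.19) and 0.70 (limma standard error 0.21). The dimmer probes gave 0.71 and 0.69, also higher at 12 months. On their faintest arrays only 3 and 8 of the 10 spots of these dim probes were well above background. The coefficient of variation among the spots of the brighter probes was at most 6.31% for the guide, 3.74% for rno-miR-129-1* and 4.54% for rno-miR-129-2*. Among the spots of the dimmer probes it reached 7.25% for the guide, 22.8% for rno-miR-129-1* and 143% for rno-miR-129-2*. The dim passenger probes were thus read much less precisely than the bright ones on some arrays.

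To see how often a passenger and its guide differ in their age change, all passenger and guide pairs of the array were formed. Of 294 pairs, 40 had both strands detected on all 7 arrays. Their median age difference in passenger minus guide was 0.03 before normalisation, and 23 of the 40 were above 0. The miR-129 pairs, which share the guide, held places 2 and 3 from the top. Only miR-183* minus miR-183 was higher, at 0.79 (limma standard error 0.34), and its ages overlapped. miR-183* was faint, with normalised log2 means of 2.97 at 12 months and 2.07 at 3 months. The ages did not overlap, with higher values at 12 months, at 5 of the 40 pairs, or 12.5%. Both miR-129 pairs were among these 5. The other members were the pairs of miR-22, miR-376b and miR-127, with differences of 0.33, 0.27 and 0.16. At 4 of the 40 pairs, or 10%, all older rats were lower, namely those of let-7b, miR-29c, miR-409 and miR-582. The lowest value was that of miR-582* minus miR-582, at -0.98 (limma standard error 0.21). The miR-129 pairs were chosen with this contrast known, so their places are descriptions and nothing is read from the share of 12.5%. On normalised values the median over the 40 pairs was 0.10. Higher values without overlap were then found at 7 pairs, or 17.5%, among them miR-129-1* and not miR-129-2*, and the miR-129 pairs again held places 2 and 3.

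The arrangement of the miR-129 genes, a shared guide with passengers read separately, was found for 16 guides on the array. All 3 strands were detected on all arrays for 2 of them, miR-129 and miR-7a. miR-7a is among the most abundant islet miRNAs, and its passengers are strands of separate genes. The age difference in passenger minus guide was -0.04 for miR-7a-1* (limma standard error 0.14) and 0.04 for miR-7a-2* (limma standard error 0.11) before normalisation. On normalised values it was 0.31 (limma standard error 0.18) and 0.17 (limma standard error 0.22), nearer to the 0.70 and 0.58 of the miR-129 pairs. The guide miR-7a lies at the top of the arrays, where quantile normalisation largely fixes its value (SD 0 at 3 months). Normalised values of its pairs therefore hold little of the change of the guide. Ages overlapped for both on either scale. For miR-30c, of which 1 passenger was detected throughout, miR-30c-2* gave -0.02 (limma standard error 0.10) before normalisation, with overlapping ages, and 0.17 (limma standard error 0.10) after it, without overlap. For 8 other guides no passenger was detected on any array while the guide was detected on all.

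**Figure D3:**
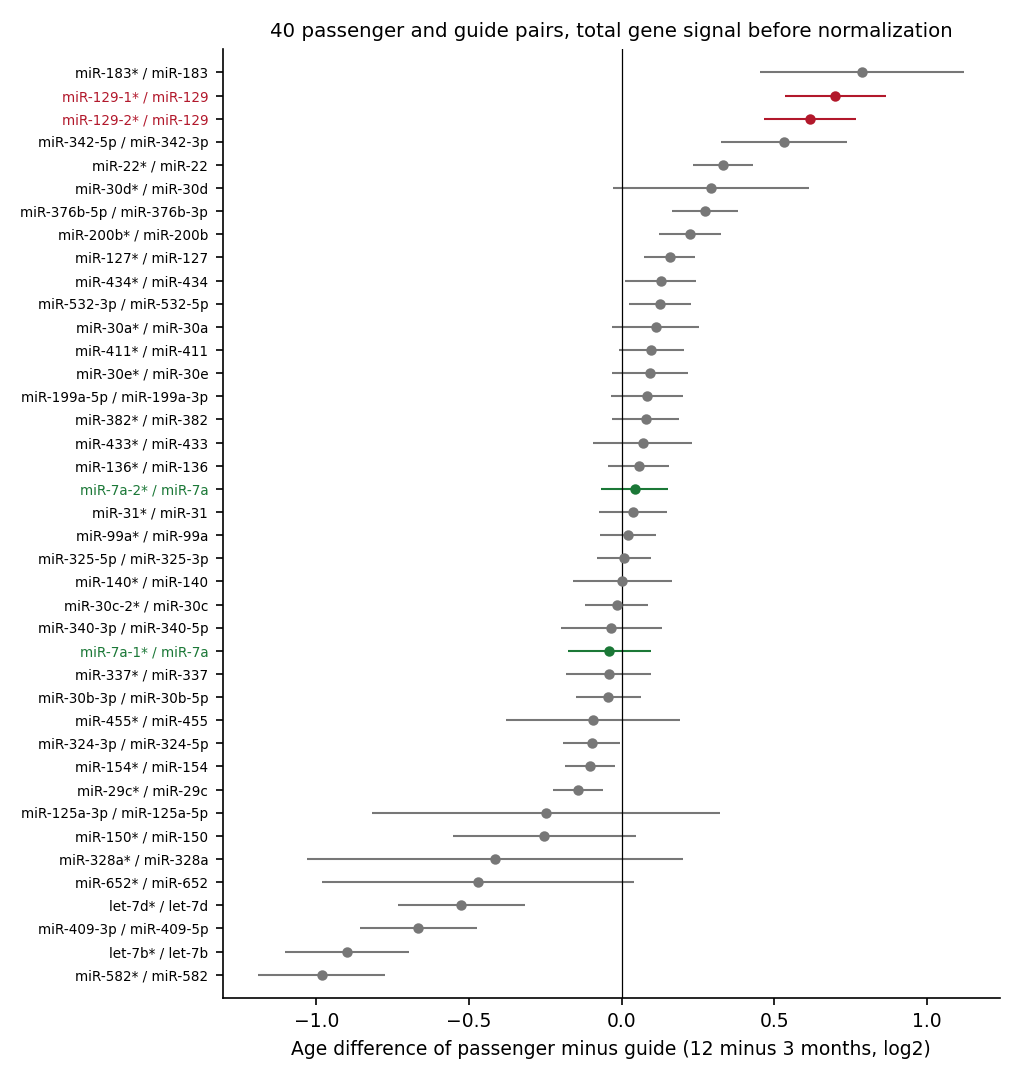
Age difference (12 minus 3 months) in passenger minus guide log2 total gene signal, before normalisation, for the 40 pairs with both strands detected on all arrays. Points are limma estimates over 4 and 3 rats and lines their standard errors. The miR-129 pairs (red) lie at 0.70 and 0.62 and the miR-7a pairs (green) at -0.04 and 0.04.

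The miRNAs whose pattern over the 7 rats was most like each strand were taken from the 235 others that were detected on all arrays. All points share arrays and normalisation, and the correlations are descriptions. The family was chosen for its age differences, so likeness of the passengers over all 7 rats favours miRNAs that also differ by age. rno-miR-129 was most like miR-325-5p (r = 0.94), miR-148b-3p (r = 0.91) and miR-374 (r = 0.90), whose ages all overlapped. rno-miR-129-1* was most like miR-383 (r = 0.95), miR-221 (r = 0.93) and miR-199a-5p (r = 0.91). These were all higher in every older rat, by 2.43, 0.40 and 1.39 on the log2 scale. rno-miR-129-2* was most like miR-382* (r = 0.92), miR-383 (r = 0.90) and miR-140* (r = 0.89).

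Correlations over deviations from the mean of each age leave the age difference out. They are again the highest among 235 miRNAs over 7 rats, and are descriptions. miR-383 led the list for rno-miR-129-2* (r = 0.92) and came next to miR-423* and miR-140* for rno-miR-129-1* (r = 0.84). The passengers kept nearly the same distance from each other, so these places of miR-383 are not separate observations. Those gave r = 0.92 and r = 0.91 with rno-miR-129-1*. miR-100 (r = 0.85) and miR-140* (r = 0.83) came next for rno-miR-129-2*. The guide was most like miR-185 (r = 0.95), miR-331 (r = 0.94) and miR-325-5p (r = 0.93). The lists of the guide and of the passengers had no miRNA in common in either comparison.

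Among other miRNAs of neural tissue, 12 had been listed and 11 were on the array under the listed names. Of these, 8 were among the 272 miRNAs, with a median log2 age difference of -0.06 beside the 0.06 of all 272. The 3 others, miR-9, miR-9* and miR-138, were detected on no array. The ages did not overlap at 2 that were higher at 12 months and at 1 that was lower, against 7.72% and 9.56% of all 272. miR-338 was higher by 0.46 (limma standard error 0.16), and miR-219-5p had a difference of -0.51 (limma standard error 0.21). miR-124, the other one that was higher without overlap, was detected on all 4 older arrays and on 0 of the younger ones. It was among the 272 only through the older rats. miR-153, miR-128, miR-137, miR-132 and miR-212 had differences between -0.29 and 0.06, with overlapping ages. The remaining listed name, miR-218, is on the array as miR-218a, a match made after its values were seen, and this was higher in every older rat by 0.82 (limma standard error 0.21). With it the list had 3 of 9 higher without overlap, beside 7.72% of all 272, and a median of -0.04. miR-124 and miR-218a are among these 3, so nothing is read from the count with or without miR-218a.

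Markers of other cells also differed between the ages. In bulk islet RNA, fewer cells of a type and less RNA per cell cannot be told apart. Summed normalised signals are given on a linear scale. The acinar miRNAs (miR-217, miR-216a and miR-216b-5p) summed to 123 to 1376 in older and 1211 to 2853 in younger rats. All 3 were lower on average at 12 months, with overlapping ages. All 5 mesenchymal miRNAs had higher means at 12 months, with sums of 1912 to 2801 against 1216 to 1918. The ages did not overlap for 3 of them (miR-199a-3p, miR-199a-5p and miR-214), beside 7.72% of all 272 miRNAs, and overlapped for miR-143 and miR-145. The leukocyte miRNAs summed to 203 to 409 against 168 to 202. miR-142-3p and miR-142-5p were higher without overlap, beside 7.72% of all 272, and miR-223 overlapped. miR-142-5p was detected on 0 of the younger arrays. It was among the 272 only through the older rats, so nothing is read from its lack of overlap. The endothelial pair, miR-126 and miR-126*, summed to 1623 to 2170.3 against 1702 to 1826. miR-126* was higher in every older rat, beside 7.72% of all 272. The ages overlapped for miR-126, with a difference of 0.07 (limma standard error 0.15). For the erythroid pair, miR-451 and miR-144, the sums were 121 to 229 against 95.1 to 302, with overlapping ages. The endocrine miRNAs miR-375, miR-7a and miR-7b summed to 34800 to 41852 against 41142 to 45625, and their ages overlapped at all 3. Quantile normalisation gives the brightest miRNA of every array the same value, and miR-7a had an SD of 0 at 3 months. Its overlap and much of the sum were thus largely set by the normalisation, and nothing is read from them. All markers were detected on at least 4 arrays, which for miR-142-5p were the older ones. miR-126* and miR-145 were detected on all older and on 2 of the younger arrays, and also passed the filter only through the older rats. The part of the markers in the age difference of the miR-129 passengers was not tested.

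The direction of the age difference was the same for each strand under all processing tried. Over 18 alternatives each, the guide ranged from 0.05 to 0.98, rno-miR-129-1* from 0.69 to 1.68 and rno-miR-129-2* from 0.52 to 1.59. The upper ends came without normalisation. With every array scaled to its miR-7a signal the values were 0.11, 0.81 and 0.72.

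**Figure D4:**
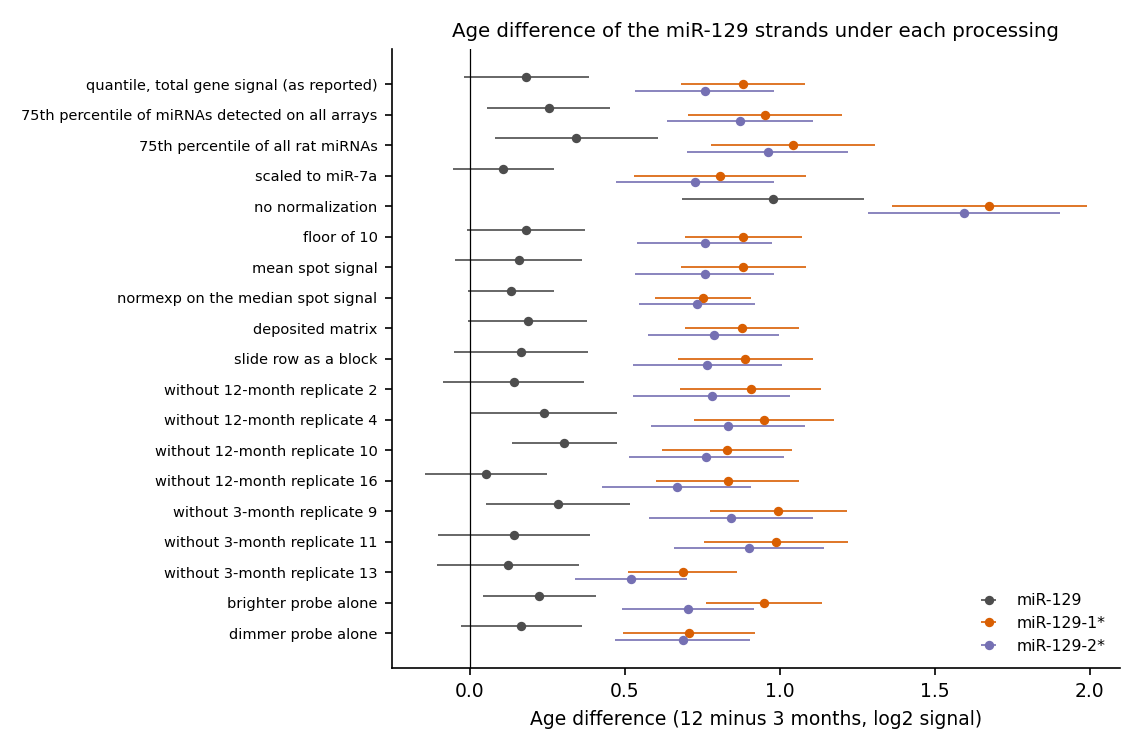
Age difference in log2 signal (12 minus 3 months) of miR-129 (grey), miR-129-1* (orange) and miR-129-2* (purple) under each processing. Points are limma estimates and lines their standard errors. The estimates of both passengers lie to the right of that of the guide in every line, and all 3 shift to the right without normalisation.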

How the data were processed

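Islet RNA of 7 rats was profiled on Agilent miRNA arrays. The authors deposited the output of Agilent Feature Extraction (version 10.7.3.1, from the submitters' processing notes), in which each miRNA has a linear intensity after background subtraction and a detection flag. They also deposited a matrix of log2 values, which had been quantile normalised. Groups are the ages that the labels give.

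Here, total gene signals below 1 were set to 1, put on a log2 scale and quantile normalised over 677 rat miRNAs. The 272 miRNAs that all arrays of either age had flagged as detected were fitted together with limma (version 3.58.1, R version 4.3.3), which gave differences and standard errors. The 40 pairs were fitted together likewise. Pairs were formed by name, and for arms without an asterisk the brighter arm was called the guide. For miR-129 the asterisk set the roles, and the brighter-arm rule would have reversed them. Ages did not overlap where every rat of one age lay above every rat of the other. The named miRNAs were those of the family, the 3 most correlated with each strand, fixed lists of neural and cell type miRNAs, and guides with 2 passengers. Others were named by their place among the pairs after their values were seen. Members and lists were chosen with earlier results of these data known. The fit was checked on simulated data. Rats are separate animals, and their number limits the precision. Messenger RNA and qPCR experiments were not analysed here.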

Additional observations from a re-analysis of the deposited data

How the results depend on the processing

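All age differences kept their sign under every alternative run. Using no normalisation between arrays moved the strands most, to 0.98 for rno-miR-129, 1.68 for rno-miR-129-1* and 1.59 for rno-miR-129-2*, by the construction of that setting, since arrays of the older rats were brighter. Passenger minus guide differences moved by less than the spread between rats under all 17 alternatives. They ranged from 0.52 to 0.85 for rno-miR-129-1* and from 0.40 to 0.76 for rno-miR-129-2*. Scaling a whole array cannot change a difference within it. Scaling to an upper percentile or to miR-7a and no normalisation thus gave the same 0.70 and 0.62 by construction. The floor of 10 left the main values of 0.70 and 0.58 as they were. These settings say nothing about how stable the differences are. The number of miRNAs whose ages did not overlap was 47 of 272, and 132 without normalisation. Without single rats it ranged from 50 (without 12-month-old replicate 16) to 99 (without replicate 10), with 80 without 3-month-old replicate 11. It was 33 with scaling to miR-7a, 53 over all miRNAs detected on at least 1 array and 69 with no filter. The slide row as a block left the strands at 0.16, 0.89 and 0.77. Normexp had been planned on the mean spot signal; the median was used, with an offset of 50, since the scanner files used here hold the median. No paired analysis was possible because the ages share no replicate numbers. With 4 and 3 rats, a small age difference of the guide could not be resolved.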
